A study of Mus musculus with 4 samples.

Results

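The 82 genes described here encode the proteins of the cytosolic ribosome, 32 of the small subunit and 50 of the large subunit. They were taken by name from the array's gene spots: Rps or Rpl followed by a number, with the letters and paralog endings of that nomenclature, the P stalk genes Rplp0 to Rplp2, and Rpsa. Rps6k kinase genes were left out, and a gene was represented by the brightest of its probes by mean signal over the arrays. The 82 are among 27825 gene names on the array, and they have 141 probes, with more than 1 probe for 44 of them. The study profiled B220 B cells, that is cells carrying the B-lineage form of CD45, from naive mice, without culture or treatment after isolation. There were 4 one-colour arrays, 1 per group: bone marrow of Mef2c KO mice, bone marrow of C57BL/6 mice (WT), spleen of Mef2c KO mice and spleen of C57BL/6 mice. Mef2c is a MADS-box transcription factor of the B lineage. The Cre or other driver of the deletion, the deleted part of the gene, the age and sex of the mice, the strain background of the knockout and how many animals an array stands for do not appear in the labels. With 1 array per group, a difference between 2 arrays had no replicate check, and no p-value belongs to it.

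A cytosolic ribosome joins a small subunit, which decodes the messenger RNA, to a large subunit, which forms the peptide bond. Its proteins are made in step with one another, and their messages are among the most abundant of a lymphocyte. In vertebrates most of these messages begin with a pyrimidine run, the terminal oligopyrimidine tract, through which growth signalling by mTORC1 sets their translation. Translation can therefore change without a change in the amount of message, and an array measures only the latter. B cell precursors divide in the bone marrow, whereas most B cells of the spleen are resting.

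The start regions were searched for this tract. RefSeq's promoter windows (build GRCm38.p6, 250 bases before to 50 bases after an annotated start) were found for 62 of the 82 genes, as 74 windows. A run of at least 7 pyrimidines that began with C, on the coding strand and within 25 bases of the annotated start, stood in 58.1% of these windows, against 24.6% of all 32851 windows. At least 1 window of 39 of the 62 genes held it. The search also takes runs that lie wholly before the annotated start, as for Rps15, Rpl39 and Rpl39l, which are no part of a message that begins there. The core CCGGAAG of ETS factors, on either strand (CTTCCGG), stood in 36.5% of the windows against 8.86% of all, and the YY1-type AAGATGGC (GCCATCTT) in 10.8% against 2.75%. Matches describe the letters and not binding. Below are 30 bases before and 20 bases from the annotated start of 6 genes with a run that begins at or spans the start, in capitals, and of Rpl22 and Rpl3l, whose values stand apart later and where no such run was found.
Rpl15 (chr14:18270967-18271016, minus strand): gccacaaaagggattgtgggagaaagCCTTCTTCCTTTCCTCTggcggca
Rpl35 (chr2:39005112-39005161, minus strand): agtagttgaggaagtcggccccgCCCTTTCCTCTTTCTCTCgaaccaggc
Rps6 (chr4:86857348-86857397, minus strand): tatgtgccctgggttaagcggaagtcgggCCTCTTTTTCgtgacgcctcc
Rps10 (chr17:27635225-27635274, minus strand): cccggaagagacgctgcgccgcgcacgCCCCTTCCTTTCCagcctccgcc
Rpl38 (chr11:114668550-114668599, plus strand): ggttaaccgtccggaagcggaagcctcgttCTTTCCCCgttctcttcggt
Rplp2 (chr7:141447621-141447670, plus strand): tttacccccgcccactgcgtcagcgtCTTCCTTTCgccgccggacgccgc
Rpl22 (chr4:152325696-152325745, plus strand): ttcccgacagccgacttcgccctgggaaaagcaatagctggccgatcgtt
Rpl3l (chr17:24727796-24727845, plus strand): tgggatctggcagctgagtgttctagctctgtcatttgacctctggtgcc
The run of Rpl38 began at the annotated start itself, and those of the other 5 genes spanned it.

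Signals are Agilent's processed intensities, and a level is log2 of the signal minus log2 of the array's 75th percentile. A gene counts as measured where Feature Extraction marked its probe well above background on 1 or both arrays compared. The 75th percentile was 520 on spleen KO and 961 to 1008 on the other arrays, 59.3% of gene spots were well above background on spleen KO against 69.1% to 72% elsewhere, and the median spike-in signal lay between 443 and 2210. Both marrow arrays were on slide 1 and both spleen arrays on slide 2, KO in array position 1 and WT in 2, so that neither slide and tissue nor position and genotype can be told apart. The Mef2c probe had signals of 5511 and 4218 in marrow, KO before WT, and of 11838 and 8534 in spleen. It was thus not lower on the arrays labelled KO, and since the deleted part is not given, it does not check the labels. KO and WT are used below as the labels of the arrays. All 9 B lineage markers were well above background on every array, with a summed level of 483 and 547 times the 75th percentile in marrow (KO, then WT) and of 1202 and 713 in spleen. Of the 9, 3 were at least 2-fold lower on KO in marrow (Cd22 at -2.43, Cd79a at -1.87, and Pax5), and in spleen 4 were lower and 3 higher. The summed level of 8 neutrophil markers, as a multiple of the 75th percentile, was 1401 and 436 in marrow (KO, then WT) and 145 and 11 in spleen. That of 8 macrophage markers was 14.4, 16.3, 113 and 44.1 in the same order, that of 8 erythroid markers 20, 30.2, 167 and 24.8, and that of 7 T cell markers 4.28 to 7.3. The Y-linked Ddx3y had signals of 699, 2005, 3.97 and 1193 in that order, not well above background on spleen KO, while Xist had 9883 to 24195. The part of these differences in the results below was not tested. In RNA of whole cell samples, fewer cells of a type and less RNA per cell cannot be told apart.

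Ribosomal protein messages made up a large share of the signal on all 4 arrays. The 82 genes carried 13.3% of the summed gene signal on marrow WT and 11.8% on marrow KO, while in spleen WT had 17.1% and KO 19.5%. The share was thus higher on both spleen arrays than on both marrow arrays, and the genotypes stood in opposite order in the 2 tissues. Small subunit genes held 6.19% on marrow WT, 5.51% on marrow KO, 7.86% on spleen WT and 9.06% on spleen KO. The ratio of the small to the large subunit's summed signal stayed between 0.852 and 0.88. The median signal of the 82 was 174332 on marrow WT, 165006 on marrow KO, 192325 on spleen WT and 199782 on spleen KO, against 47.2 to 106 for all genes. As levels these medians were 7.50, 7.35, 7.63 and 8.59 in the same order. In all, 81 genes were well above background on all 4 arrays, and Rpl3l was so on the marrow arrays only. The level was highest on spleen KO for 72 genes, on spleen WT for 9 and on marrow KO for 1, and lowest on marrow KO for 56. These counts were not made over all genes, and they depend on the scaling. The 75th percentile that divides the signal was 520 on spleen KO and 961 to 1008 elsewhere. Of the brightest 5% of other genes, 1114 of 1315 also had a higher level on spleen KO than on spleen WT. Without scaling, 43 of the 82 signals were lower on spleen KO than on spleen WT.

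**Figure D1:**
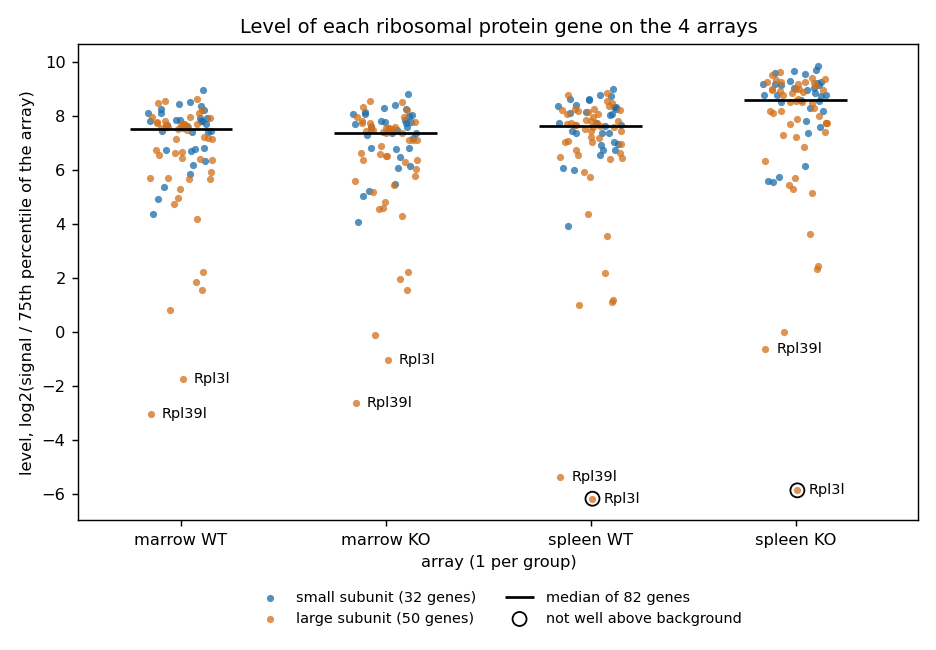
Level of the 82 ribosomal protein genes on each array, as log2 of the signal over the array's 75th percentile; each point is a gene, coloured by subunit, the line is the median, and circles mark Rpl3l where it was not well above background. The medians are 7.50 on marrow WT, 7.35 on marrow KO, 7.63 on spleen WT and 8.59 on spleen KO, and names mark Rpl39l and Rpl3l, each on every array; as unscaled signals the medians of spleen KO and spleen WT are 199782 and 192325, and the median of the per-gene differences between these arrays turns negative without scaling (-0.03) and after cyclic loess (-0.40).

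In bone marrow the ribosomal protein genes differed little between KO and WT. The median log2 difference, KO minus WT, was -0.11 (interquartile range -0.16 to -0.01), against -0.07 (-0.41 to 0.27) for all 20904 genes measured, and 63 of the 82 lay below 0. None was 2-fold higher or lower, where 8.57% of all genes were at least 2-fold higher and 4.91% at least 2-fold lower. The genes moved closely together: 96.3% lay within 0.5 of their median, against 64.3% of all genes and 84.7% of the brightest 5% of other genes. The median stayed below 0 under every scaling tried, from -0.04 without scaling to -0.23 with cyclic loess. Small and large subunit genes had medians of -0.10 and -0.11. The P stalk genes, whose proteins recruit elongation factors to the large subunit, were at -0.15 for Rplp1, -0.12 for Rplp0 and -0.02 for Rplp2.

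Of the paralogs, Rpl3l, Rpl39l and Rps27l stood at the upper end of the marrow differences. The paralog Rpl7l1 was at 0.01, and the paralog Rpl22l1 was among the lowest. Rpl3l, the striated muscle paralog of Rpl3, had signals of 487 on KO and 286 on WT (0.70), and Rpl39l, the paralog of Rpl39 best known from testis, 163 and 118 (0.40). Next were Rps27l (0.12), Rpl10a (0.11) and Rpl27a (0.11). The lowest was Rpl21, at 931 and 1671 (-0.91), followed by Rpl29 (-0.49), Rpl22l1 (-0.49), Rps26 (-0.39) and Rpl4 (-0.36). The chosen Rpl21 probe rests on a cDNA clone sequence, and the other Rpl21 probe, designed on the reference transcript, differed by 0.26 in the opposite direction. For Rpl29, which had 4 probes, the 4 differences were all negative, from -0.67 to -0.41. The other Rpl22l1 probe, of low signal (112 on KO and 32.6 on WT), differed by 1.72, opposite to the chosen probe.

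In the spleen the same genes stood higher on KO than on WT at the reported scaling. The median difference was 0.87 (interquartile range 0.68 to 1.25), a fold of 1.83, against 0.13 for all 19465 genes measured, and 72 of the 81 measured genes lay above 0. At least 2-fold higher were 35 and at least 2-fold lower 1, where 20% of all genes were higher and 14.3% lower by that much. This direction depended on the scaling: the median was 1.29 when arrays were centred on their medians, 0.81 after normexp, 0.13 after quantile normalization, -0.03 without scaling and -0.40 after cyclic loess. Relative to the median of all genes it was 0.74 above at the reported scaling, with array medians and without scaling. Those settings differ by a constant per array, so that this value could not differ among them. The median was 0.47 above that of all genes after normexp, 0.03 below after quantile normalization and 0.49 below after cyclic loess. Other bright genes stood as high: the brightest 5% of genes without the ribosomal proteins had a median of 0.91, with 585 of 1315 at least 2-fold higher. Within the group, 72 genes lay within 2-fold of the group's median, and 66.7% within 0.5, against 35.8% of all genes and 49.2% of the other bright genes. Small and large subunit genes had medians of 0.88 and 0.85, and the P stalk genes 0.56 (Rplp0), 0.68 (Rplp2) and 0.76 (Rplp1).

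**Figure D2:**
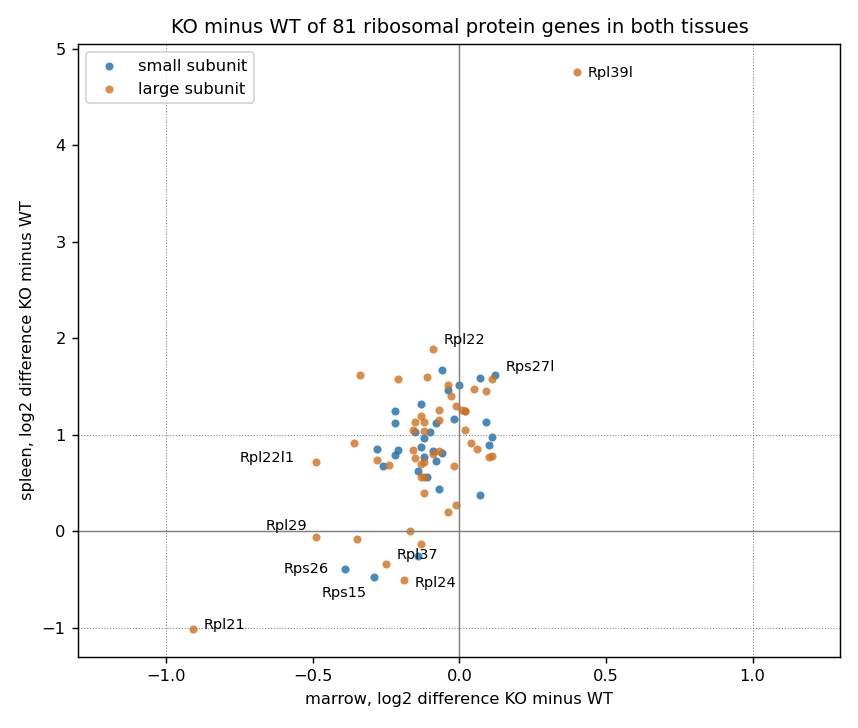
Log2 difference KO minus WT of the 81 genes measured in both tissues, marrow on the horizontal and spleen on the vertical axis; points are genes, coloured by subunit, and dotted lines mark 2-fold. Most points lie left of 0 by a little and near 0.87 in the spleen, Rpl39l stands apart at 4.76, and Rpl21 is the lowest on both axes; the height in the spleen turns negative without scaling (median -0.03) and after cyclic loess (-0.40).

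**Figure D3:**
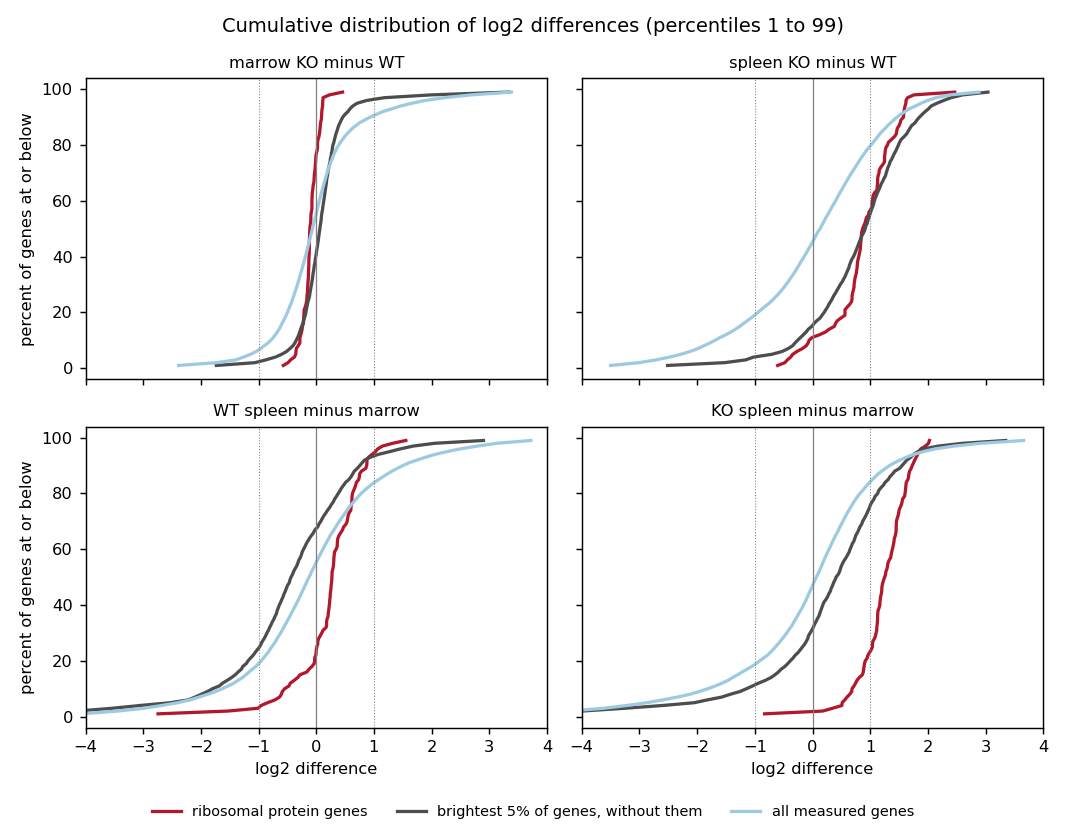
Cumulative percent of genes by log2 difference in each comparison, for the ribosomal protein genes, the brightest 5% of other genes and all measured genes. In the spleen KO minus WT panel the ribosomal protein curve runs beside that of the other bright genes (medians 0.87 and 0.91), a height that turns negative for the ribosomal protein genes without scaling and after cyclic loess; in the KO spleen minus marrow panel it lies to the right of it (1.25 and 0.41).

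**Figure D4:**
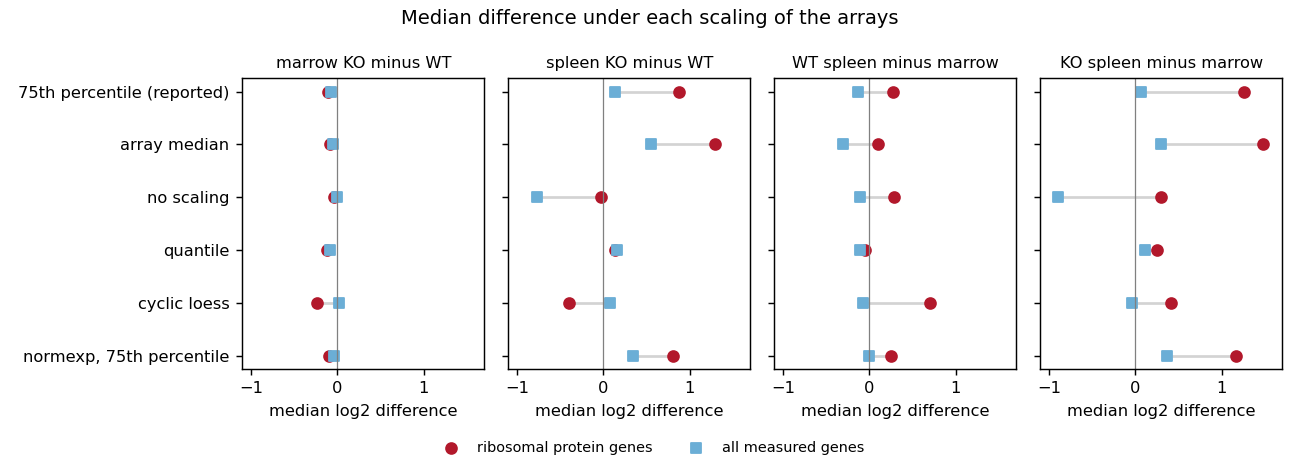
Median log2 difference of the ribosomal protein genes (circles) and of all measured genes (squares) under 6 treatments of the arrays, 1 panel per comparison. In the spleen the ribosomal protein median runs from -0.40 after cyclic loess to 1.29 with array medians, and in marrow from -0.23 to -0.04.

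Single genes departed from the group in the spleen in both directions. Rpl39l had signals of 338 (KO) and 23.3 (WT) in spleen, against 163 and 118 in marrow, a difference of 4.76 in spleen, where WT had the lowest of its 4 signals. This difference kept its sign under every scaling, from 2.87 after normexp to 5.18 with array medians. Its second probe, not well above background on any array, had signals of 19.1 and 4.3. Rpl22, a large subunit protein whose loss impairs lymphocyte development in mice, had 163768 and 82397 (1.89), and its second probe 8143 and 6629 (1.20). Rpl22 stayed above 0 under every scaling, from 0.68 after cyclic loess to 2.31. Among the next were Rps27l, a p53-inducible paralog of Rps27 (1.62), and Rpl5, which with Rpl11 restrains Mdm2 when ribosome assembly fails (1.62), and Rpl11 was at 1.25.

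At the other end, Rpl21 had 516 in spleen KO against 1944 in spleen WT (-1.01), with the other Rpl21 probe at 1.61. Rpl24, at an inter-subunit bridge, had 22384 and 59156 (-0.50), Rps15, of the small subunit head, 25239 and 65060 (-0.47), Rps26, mutated in Diamond-Blackfan anaemia, 36660 and 89523 (-0.39), and Rpl37 59810 and 141523 (-0.34). For these 5 genes the signal on spleen WT was more than 2 times that on spleen KO, while over all 82 genes 39 signals were higher on spleen KO and 43 lower. With array medians the Rps15 and Rpl24 differences shrank to -0.05 and -0.08 and that of Rpl37 turned to 0.08. Negative too at the reported scaling were Rpsa (-0.25), Rpl18 (-0.13) and Rpl29 (-0.06). With array medians 78 of the 81 measured genes lay above 0, Rps26, Rpsa, Rpl18 and Rpl29 among them. At the reported scaling, other probes were at 1.90 for Rpl37, -0.24 for Rpl24, 1.95 for Rpsa and -0.35 to -0.15 for Rpl29.

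Both tissues together gave 54 genes below 0 in marrow and above 0 in spleen, 0 the other way, 9 below 0 in both and 18 above 0 in both, of 81. Taken 1 tissue at a time, 11595 of 20904 measured genes lay below 0 in marrow and 10661 of 19465 above 0 in spleen. For the other bright genes these counts were 540 of 1316 and 1114 of 1315. The joint count was made for the ribosomal protein genes only. The 4 arrays of these 2 comparisons are not shared, but with 1 array per group the difference between the tissues' differences was not tested, and the sign in the spleen is that of the reported scaling.

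Between the WT tissues the ribosomal protein genes were slightly higher in spleen. The median difference, spleen minus marrow, was 0.27, against -0.13 for all 21099 genes measured and -0.44 for the other bright genes. Above 0 lay 62 of the 82, against 9423 of all 21099 genes and 429 of 1316 other bright genes. Here 5 of the 82 were at least 2-fold higher and 3 at least 2-fold lower, where 15.4% and 16% of all genes were. The median was 0.29 without scaling, 0.70 after cyclic loess and 0.10 with array medians, and turned to -0.05 after quantile normalization. The highest were Rps15, with signals of 65060 on spleen WT and 19749 on marrow WT (1.71), Rpl37 with 141523 and 48942 (1.52), Rpl24 with 59156 and 25417 (1.20), Rpl35a (1.08) and Rpl30 (1.03). The spleen KO minus WT differences of Rps15, Rpl37 and Rpl24, given above, share the spleen WT array with these. The other probe of Rpl37, of low signal (40.5 on spleen WT and 40.6 on marrow WT), was at -0.02. That of Rpl24 was at 1.02, of Rpl35a at 0.39 and of Rpl30 at 0.54. Lowest were Rpl3l, which was at least 14.9-fold lower in spleen because it was not well above background there, Rpl39l (-2.35), Rpl7l1, a paralog of Rpl7 (-1.02), Rps27l (-0.99) and Rpl28 (-0.85). All 6 markers of dividing cells were at least 2-fold lower in spleen, with a median of -3.19, where the ribosomal protein genes had 0.27.

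Between the KO tissues the difference was larger at the reported scaling, but not in every treatment: without scaling the medians of KO and WT were 0.30 and 0.29, and after cyclic loess 0.41 and 0.70. The difference between them was not tested. The median in KO was 1.25, against 0.07 for all 20014 genes measured and 0.41 for the other bright genes, and 81 of 82 lay above 0. At least 2-fold higher were 63 and at least 2-fold lower 1, where 15.8% and 14.1% of all genes were. The median stayed above 0 in every treatment of the arrays, at 0.25 after quantile normalization, 0.30 without scaling, 0.41 after cyclic loess, 1.16 after normexp and 1.48 with array medians. The highest were Rpl22l1, with 80458 on spleen KO and 36797 on marrow KO (2.08), Rpl39l (2.01), Rpl22 (2.01), Rpl26 (1.89) and Rpl39 (1.84). The other Rpl22l1 probe was at -0.55, with signals of 39.5 and 112, and that of Rpl22 at 1.32. Rpl3l was at least 14.8-fold lower, and the lowest of the rest were Rpl21 (0.10), Rpl7l1 (0.22), Rpsa (0.51) and Rps27l (0.51). This comparison uses the spleen KO array as the spleen genotype comparison does.

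The probes of Rpl22, Rpl3 and their paralogs are shown because the values of each pair differ, 60 bases each on build mm9, given 5′ to 3′. Whether a probe also takes up the message of the paralog was not tested.
Rpl22 (chr4:151704158-151704217, plus strand): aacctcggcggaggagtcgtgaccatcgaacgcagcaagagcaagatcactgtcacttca
Rpl22l1 (chr3:28706197-28706256, plus strand): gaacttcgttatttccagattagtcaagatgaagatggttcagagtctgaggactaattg
Rpl3 (chr15:79910252-79910826, minus strand): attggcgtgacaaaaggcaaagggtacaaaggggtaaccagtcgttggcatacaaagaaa
Rpl3l (chr17:24872413-24872681, plus strand): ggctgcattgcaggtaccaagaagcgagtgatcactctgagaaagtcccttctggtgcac
Where the span on the chromosome is longer than the probe, as for Rpl3 and Rpl3l, the probe joins sequence on both sides of an intron. Rpl22 had 78850 and 80161 in marrow (KO, then WT) and 163768 and 82397 in spleen, high on spleen KO alone. Its paralog Rpl22l1 had 36797, 49222, 80458 and 91251 in that order, a spleen difference of 0.72 close to the group median. The other Rpl22l1 probe, at 39.5 on spleen KO and 203 on spleen WT, had a spleen difference of -1.46. Rpl3 had 139527, 133710, 109999 and 83456, and its spleen minus marrow difference at the reported scaling was -0.69 in WT and 0.61 in KO. As unscaled signals, Rpl3 was lower in spleen than in marrow for KO and for WT. Rpl3l had 487, 286, 8.95 and 13.5, not well above background in either spleen. Rpl39, with 139058, 139558, 257256 and 215743, followed the group (spleen difference 1.15), unlike Rpl39l. Rpl7 (169254, 171780, 190113 and 203544) had a spleen difference of 0.80, and Rpl7l1 (4713, 4453, 2838 and 2214) one of 1.26. Rps27 (303785, 314756, 429203 and 408415) was at 0.97, and Rps27l (32982, 28895, 24230 and 14719) at 1.62. Of Rpl10 and the X-linked Rps4x, the spleen differences were 0.00 and 1.03, and the marrow differences -0.17 and -0.10. The names Rpl10l and Rps4l were not found among the gene names used here. The chosen probes of Rpl10 and Rpl12 are placed on a chromosome other than that of the gene, so that signal from near-identical copies cannot be told apart there.

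Probes of 1 gene did not always give the same difference. Of 43 genes with at least 2 measured probes, 2 had probes over 2-fold apart in marrow, 11 in the spleen KO minus WT comparison, 8 in spleen minus marrow of WT and 6 in that of KO. Among the 11 were Rpl13, Rpl21, Rpl22l1, Rpl34, Rpl37, Rps18, Rps19, Rps20, Rps4x and Rpsa. Rps19, the gene most often mutated in Diamond-Blackfan anaemia, is the widest: in spleen its chosen probe had 187180 on KO and 159794 on WT (1.13), and its reference transcript probe 6299 and 50105 (-2.09). Over the 41 pairs of measured probes on 1 transcript (28 genes), the 3′ probe minus the 5′ probe had a median of 0.13 in the spleen comparison and was over 2-fold apart in 12.2% of pairs. Over 5792 such pairs of all genes the median was 0.40 and 40.5% were over 2-fold apart. In marrow the medians were 0.03 and 0.12. In WT spleen minus marrow they were -0.19 and -0.17, and the 3′ probe was the higher in 7 of 41 pairs (17.1%), against 39.3% of pairs of all genes. In KO spleen minus marrow they were 0.01 and 0.13. The ribosomal RNA probe Rn18s had signals of 192687 on marrow WT, 37484 on marrow KO, 776230 on spleen WT and 1984 on spleen KO. The part of these probe and RNA differences in the gene results was not tested.

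**Figure D5:**
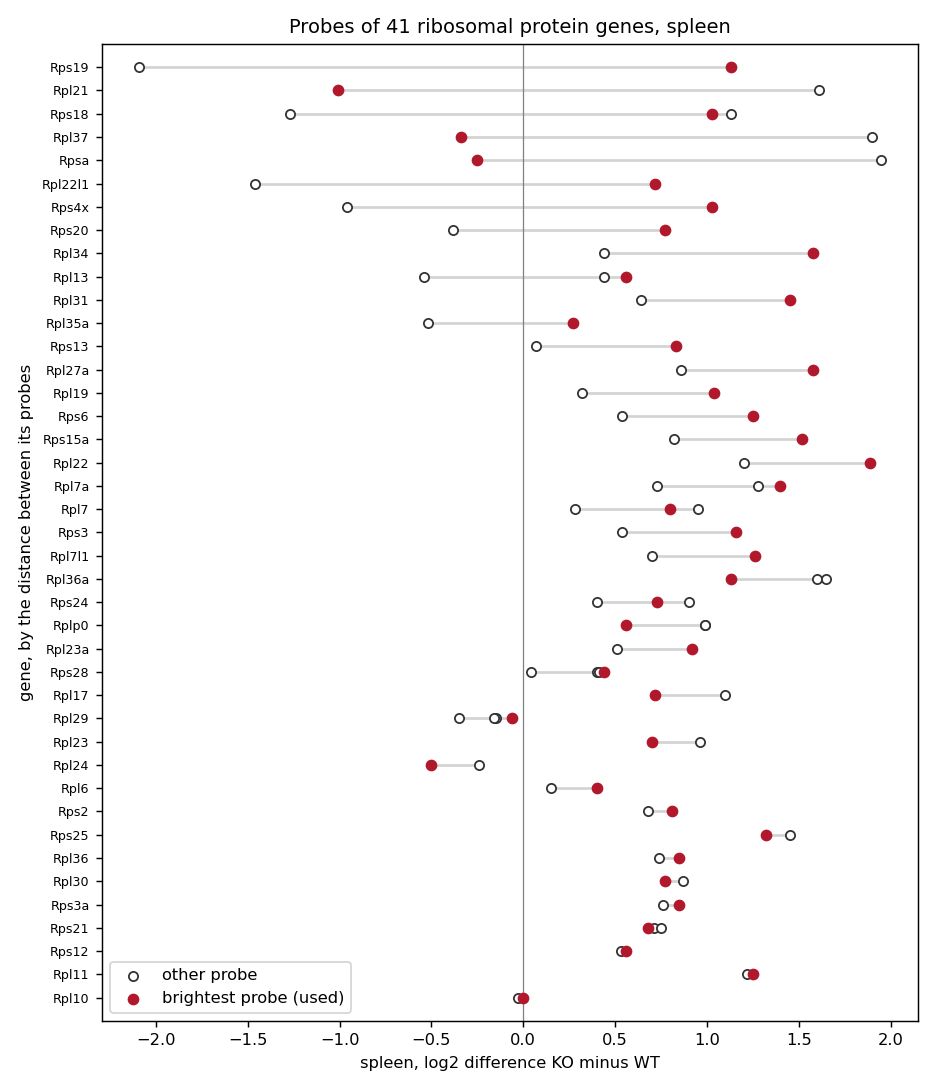
Spleen log2 difference KO minus WT of every probe well above background on both spleen arrays, for 41 of the 43 genes with at least 2 of them, ordered by the distance between probes; filled circles are the brightest probe, which was used, and open circles the others. Rps19 (1.13 and -2.09) and Rpl21 (-1.01 and 1.61) are the widest, and most genes lie within 2-fold; the side of 0 on which the points lie depends on the scaling.

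The fit over all 4 arrays, limma with tissue and genotype as additive terms and 1 residual degree of freedom, tested 21724 genes. It takes the tissues as repeats of the genotype effect, and the genotypes as repeats of the tissue effect. The rest of its variance estimate was drawn from all genes (9.47 prior degrees of freedom). For genotype it called 0 of the 82 genes at an adjusted p under 0.05 (Benjamini-Hochberg), where 0.046% of all genes were called. At an unadjusted limma p under 0.05 there was 1 of the 82 genes (1.22%), against 11.4% of all genes. That 1 gene was Rpl39l (log2 2.58, SE 0.86, limma adjusted p = 0.305), higher on KO in both tissues. With array medians, no filter on background, normexp, or the requirement of all arrays above background, limma called Rpl39l at adjusted p between 0.000373 and 0.0171. The next lowest were Rpl21 (log2 -0.96, SE 0.54, limma adjusted p = 0.537), Rps27l (0.87), Rpl22 (0.90) and Rpl27a (0.85), the last 3 with limma adjusted p of 0.616 to 0.627. For tissue limma called 1 of the 82 genes, where 8.48% of all genes were called: Rpl3l, lower in spleen (limma adjusted p = 0.000771), lost without scaling (adjusted p = 0.0681). Its probe was not well above background on either spleen array, so the fit sets marrow against dim values, and the size of the difference is known only as the bounds given above. Rps15 was the next (log2 1.62, SE 0.54, limma adjusted p = 0.0994), and Rpl37 (1.47), Rpl22l1 (1.48), Rpl30 (1.37) and Rps21 (1.35) followed, all higher in spleen. After normexp these 5 were called as well. An additive fit has no term for a genotype difference that depends on the tissue. For Rpl39l that difference was 0.40 in marrow and 4.76 in spleen, so that the tissues were unlike as repeats.

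Other genes of protein synthesis followed only in part, at the reported scaling. Among ribosomal proteins whose names fall outside the rule, Fau, Rpl36al and Gnb2l1 had spleen differences of 0.46, 0.75 and 0.84, and marrow differences of -0.11, -0.14 and -0.07. Of 18 translation factors whose messages also carry oligopyrimidine tracts, 10 were at least 2-fold higher on spleen KO and 0 lower, with a median of 1.06. These counts, and those of the lists that follow, stand beside 20% of all genes higher and 14.3% lower by that much, and 585 of 1315 other bright genes higher. The highest were Eef1b2, an elongation factor exchange subunit (1.75), and Tpt1 (1.47), and the lowest Eef2, the translocase (-0.73), and Eif4b (-0.28). Of 26 ribosome biogenesis genes 7 passed 2-fold upward and 1 downward (median 0.21), from Nip7 (1.98) and Polr1c (1.55) to Nolc1 (-0.63) and Mybbp1a (-1.78). Of 17 genes of growth control over ribosome synthesis 3 passed it upward and 5 downward (median -0.11). Among them Eif4e, the cap-binding protein, was at 1.64 and Myc, which drives ribosome synthesis, at 1.41, against Eif4ebp2, an inhibitor of Eif4e, at -2.26 and Akt1s1 at -2.14. Rheb (1.40) also passed it upward, and the kinase Rps6kb2 (-2.08), Mnt (-1.75) and Eif4g1 (-1.27) downward. Of 10 genes of the Rpl5 and Rpl11 checkpoint 4 passed it upward and 0 downward (median 0.14), Znhit3 at 2.39 and Sbds at 1.45 being the highest and Trp53 (-0.68) and Mdm4 (-0.32) the lowest. In marrow 0 genes of these 4 lists were 2-fold higher or lower, where 8.57% of all genes were higher and 4.91% lower. The medians of the lists there were -0.07, -0.19, -0.17 and -0.11. Between the WT tissues the translation factors had a median of -0.33, below 0 where the ribosomal protein genes had 0.27. Of the 18, 0 were at least 2-fold higher and 3 at least 2-fold lower, where 15.4% and 16% of all genes were.

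Across the genes, the share of G and C in the probe had a Pearson correlation of -0.34 (Spearman -0.13, 81 genes on the same 2 arrays) with the spleen difference, and -0.19 (-0.20) over 16458 genes of the whole array. These are descriptions across genes, which are not independent replicates.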

How the data were processed

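Intensity values per spot were deposited by the authors, 1 scanner file per array, made with Agilent Feature Extraction 10.5.1.1 on probes placed on build mm9, per the file headers; they are linear and background-corrected, with no normalization between arrays recorded. The deposited value table equals the processed intensity at all 45018 spots. Outlier-marked spots (72 to 85 of 43379 gene spots per array) were dropped, none was saturated, log2 signals were scaled to each array's 75th percentile, and spots of a probe were averaged. Where a probe was well above background on 1 array of a comparison, its difference is a bound ("at least N-fold") against the dim probe's own value or that array's lowest well-above-background value, whichever is higher. A fold of 2 was counted, with no p-value. limma 3.58.1 (R 4.3.3) fitted tissue and genotype. This step was tested on simulated data. Named were the 5 highest and 5 lowest genes of each comparison, bounds, paralogs with their parents, genes with the lowest limma p, and for other lists the 2 highest and 2 lowest. For growth control, the other genes that passed 2-fold in spleen were named as well. A few genes that this rule names are not reported here. Genes and lists were chosen with earlier results of these data known. Gene symbols are the array's, and 82 of 82 matched RefSeq. Groups came from the labels, and 11 alternatives were planned and 2 added after the data were seen.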

Additional observations from a re-analysis of the deposited data

Results flagged for a closer look

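The ribosomal protein genes had a median KO minus WT difference of -0.11 in marrow and of 0.87 in spleen, and 54 of 81 genes lay below 0 in marrow and above 0 in spleen. What drew attention is that most genes of one group took opposite signs in the 2 tissues, with 0 genes the other way. The medians of all measured genes were -0.07 in marrow and 0.13 in spleen, so the marrow median lay close to that of all genes. The joint count was not made over all genes. Taken 1 tissue at a time, 11595 of 20904 measured genes lay below 0 in marrow and 10661 of 19465 above 0 in spleen. Of the brightest 5% of other genes, 1114 of 1315 lay above 0 in spleen and 540 of 1316 below 0 in marrow. The difference between the tissues was not tested, because each group is 1 array. The spleen median turned to -0.03 without scaling and to -0.40 after cyclic loess.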

How the results depend on the processing

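Scaling decided most of what changed. With cyclic loess the medians were -0.23 in marrow and -0.40 in spleen (KO minus WT), and 0.70 in WT and 0.41 in KO (spleen minus marrow). With quantile normalization the last 3 were 0.13, -0.05 and 0.25, with array medians 1.29, 0.10 and 1.48, and without scaling the spleen median was -0.03 and the KO tissue median 0.30. Normexp gave 1.16 between the KO tissues. In spleen 63 genes were at least 2-fold higher with array medians, 2 with quantile normalization, and 1 each without scaling and with cyclic loess. Over all 19465 genes measured, the counts were 6454, 3472, 831 and 3183 in that order. The count at least 2-fold lower in spleen was 0 with array medians and after normexp, 3 with quantile normalization, 7 without scaling and 12 with cyclic loess. Over all genes it was 1620, 1368, 2444, 7366 and 2931 in that order. Between the WT tissues 21 were higher with cyclic loess, and 3 higher and 5 lower with array medians. Of all 21099 genes measured there, 3459 were higher with cyclic loess, and 2698 higher and 4288 lower with array medians. Between the KO tissues 11, 8 and 3 were higher with cyclic loess, quantile normalization and no scaling, against 2566, 2962 and 883 of all 20014 genes. Requiring both arrays above background left 0 lower there, because Rpl3l was then not measured. At 1.5-fold, 63 were higher in spleen, 22 higher and 8 lower between the WT tissues, and 1 higher and 1 lower in marrow. Over all genes 6441 of 19465 were higher in spleen at that threshold. Between the WT tissues 5160 of 21099 genes were higher and 5990 lower, and in marrow 2983 of 20904 higher and 3093 lower. limma's genotype calls rose from 0 to 1 with array medians, no filter, normexp and all arrays above background, and its tissue calls fell to 0 without scaling and rose to 6 after normexp. With all arrays above background the 1 tissue call was Rps15, and Rpl3l was not tested. The cause was not tested. The remaining group medians under these alternatives, and those under other choices of probe, kept their direction. The remaining counts stayed within 1.5 times, and limma calls on their side of the threshold. Differences of single genes did not always do so. With the reference transcript probe Rpl21 turned to 0.26 in marrow and 1.61 in spleen, and Rps19 to -2.09 in spleen. Rpl30 fell to 0.54 between the WT tissues, under 2-fold. No paired analysis was possible because the labels carry no replicate numbers and each group is 1 array, and leaving out an array leaves no residual degree of freedom. Genes of low signal, such as Rpl39l and Rpl3l on the spleen arrays, lie near the background and are the least precise.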
